A study of Homo sapiens with 9 samples.

Results

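The structural subunits of the mitochondrial respiratory chain and of ATP synthase were followed in 786-0 cells, a clear cell renal carcinoma line with defective VHL, an inactivating mutation of HIF1α and constitutive HIF2α. The members were the protein-coding genes whose symbols name such a subunit (NDUFA, NDUFB, NDUFC, NDUFS and NDUFV with a number, SDHA to SDHD, UQCR, CYC1, COX4 to COX8, ATP5F1, ATP5M and ATP5P, and the mitochondrially encoded MT-ND, MT-CO, MT-CYB and MT-ATP genes), with no use of their values. This gave 102 of the 58735 gene identifiers counted, 89 in the nuclear and 13 in the mitochondrial genome. Complex I had 44 members, complex II 4, complex III 11, complex IV 22 and ATP synthase (complex V) 21. NDUFA4 and its isoform NDUFA4L2 were placed in complex IV, since NDUFA4 is a cytochrome c oxidase subunit despite its name.

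RNA was sequenced from untreated parental cells (control), from parental cells given 10 μM PT2385, an antagonist of HIF2α, for 48 h (PT2385), and from untreated HIF2a KO cells of the same line (KO), with 3 libraries in each group. All cells, controls included, lacked functional VHL and HIF1α and were kept in normoxia, so that hypoxia itself was not part of the comparison. The KO libraries carried the same knockout label. How the knockout was made, and whether the libraries came from 1 line or 1 clone, is not given in the sources used here. The study's text describes silencing of HIF2α by siRNA and no knockout. Nothing in the labels says that the libraries of a group came from separate cultures, so the p-values measure the spread between these libraries, which may be technical.

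Complexes I to IV pass electrons from NADH and succinate to oxygen, and complexes I, III and IV pump protons across the inner mitochondrial membrane. ATP synthase uses the return of these protons to make ATP. All subunits of complex II are nuclear genes, whereas the catalytic or membrane core of the other complexes combines proteins made in the mitochondrion with nuclear-encoded partners. Clear cell renal carcinoma is known for a glycolytic metabolism with low mitochondrial respiration, and HIF factors are known to act on respiration through isoforms such as NDUFA4L2 and COX4I2 and through regulators such as PDK1.

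Total counts per library ran from 11881000 to 14730081. Levels are given as CPM (counts scaled to the library total after TMM scaling of the library sizes), or as RPKM (CPM per kilobase of annotated exon) where genes of different length are set side by side. EPAS1, which encodes HIF2α (ENSG00000116016, chromosome 2, 46293667 to 46386697, GRCh38), had 3226, 3210 and 2788 counts in the controls and 262, 360 and 307 in KO. Its log2 fold change was -3.52 in KO (SE 0.0963, adjusted p = 2.15e-09) and -0.11 with PT2385 (adjusted p = 0.459). Of 8 renal epithelium and clear cell carcinoma markers 7 were detected, and CA9 stayed at or under 3 counts in every library. Of these 7, KRT8 (log2 fold change 0.54), KRT18 (0.85) and CDH16 (1.32) were higher and PAX2 (-1.30) lower in KO, while KRT8 and KRT18 were higher and PAX2 lower with PT2385. Their summed level was 5894 to 6349 CPM in the controls, 5579 to 6278 with PT2385 and 5819 to 6189 in KO. Of 4 fibroblast markers COL1A2 and DCN had no count, whereas COL1A1 and PDGFRB were called lower in KO. COL1A1 fell by 1.10 on the log2 scale, and PDGFRB had 27, 31 and 28 counts in the controls and 2, 2 and 0 in KO, at or under 3 counts. The fibroblast markers summed to 6.91 to 8.89 CPM in the controls, 8.38 to 10.5 with PT2385 and 2.01 to 3.08 in KO. Leukocyte, endothelial and erythroid markers were at or near 0 in every group. The part of these marker changes in the values of the subunits was not tested.

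In the control cells the highest level per length among the members was that of MT-CO1, the catalytic core of complex IV, at 3849 RPKM. The median of the nuclear members of complex I was 4.81 RPKM and that of its mitochondrially encoded members 170.1 RPKM, and the 13 mitochondrial members took 0.977% ± 0.0382 (SD, n = 3) of all counts. MT-CO1 alone made up 60.6% of these. Among the nuclear members the highest was ATP5F1B, the catalytic β subunit of ATP synthase, at 186 RPKM, followed within the other complexes by COX8A (70.9), CYC1 (69.5), NDUFB7 (61.9) and SDHC (40.8). Of the 102 members, 92 had more than 3 counts in every library, and 3 counts were taken as the floor of detection. At or under that floor in all 9 libraries were 7 members. COX4I2, COX6A2, COX7A1 and COX7B2, isoforms known from lung, muscle or testis, had no count in any library, and COX6B2, COX8C and NDUFC2-KCTD14 had at most 1 count in a library. The 3 others with little signal were NDUFA4L2, UQCRHL and the read-through gene ATP5MF-PTCD1. None of these 10 passed the filter on low counts in any comparison, and ATP5MGL passed it only in KO against PT2385.

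The isoforms linked to HIF were thus at very low level in a line with constitutive HIF2α. NDUFA4L2 (ENSG00000185633, chromosome 12, 57234903 to 57240715) had 11, 2 and 5 counts in the controls, 4, 2 and 2 with PT2385, and 0, 1 and 1 in KO. The groups of control and KO did not overlap, but all 3 groups lay around the floor. Scaled to library size, the summed counts were 40.4% of control with PT2385 (95% interval of the count ratio 15.2 to 97.7, exact, counting error only) and 9.57% in KO (1.08 to 40.0). The gene overlaps SHMT2 on the opposite strand, and the extent of the overlap was not examined. SHMT2 held 22315 counts over the 9 libraries against 28 for NDUFA4L2. The strand setting of the counting is not given in the sources used here. Per length, NDUFA4L2 stood at 2.05% of NDUFA4 in the controls, 0.686% with PT2385 and 0.127% in KO. COX4I2 was not detected at this depth, where 3 counts correspond to 0.206 to 0.252 CPM depending on the library, while COX4I1 had 44.2 to 67.8 CPM.

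The effect of PT2385 on the subunits was examined first. Few members changed and none by 1.5-fold, a size reached by 6.89% of all tested genes. Among tested genes with a mean of at least 10 CPM, a level that 76 members had, it was reached by 2.83%. Of the 91 members tested, 3 were higher and 0 lower (edgeR, adjusted p under 0.05), while 7.70% of the 15089 tested genes were called, 3.08% higher and 4.62% lower. The 3 were ATP5MC1, which encodes the proton-carrying c subunit, ATP5F1A, the α subunit of the catalytic head, and SDHB, the iron-sulphur subunit of succinate dehydrogenase. At an unadjusted p under 0.05 there were 16 members in both directions together, beside 3193 of the 15089 tested genes. DESeq2 called 2 members higher and 0 lower, beside 410 and 662 of all tested genes. Log2 fold changes ran from -0.29 (NDUFS4) to 0.49 (NDUFA7) with a median of 0.07, and 69 of the 91 lay above 0, whereas 50.3% of all tested genes did. Similar shares lay above 0 in other mitochondrial lists: 59 of 78 ribosomal genes, 10 of 13 citrate cycle genes and 13 of 17 biogenesis genes. The lowest share was 3 of 5 ATP synthase assembly factors. Of the nuclear members 65 of 78 lay above 0, against 4 of the 13 mitochondrial members. In 22 members every PT2385 library was above every control library and in 1 (NDUFS4) below. Over all tested genes these shares were 13.4% and 12.5%.

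ATP5MC1 (chromosome 17, 48892765 to 48895871) had 29.5, 35.9 and 37.6 CPM in the controls and 42.7, 43.6 and 47.2 CPM with PT2385. The groups did not overlap, and the log2 fold change was 0.37 (SE 0.0952, adjusted p = 0.0349). In KO the values of 34.0, 35.4 and 42.9 CPM overlapped those of both other groups, with a log2 fold change against control of 0.14 (adjusted p = 0.403). ATP5MC1, ATP5MC2 and ATP5MC3 encode the same mature c subunit. ATP5MC1 made up 30.7% ± 2.52 of their summed level per length in the controls, 34.2% ± 0.624 with PT2385 and 30.1% ± 3.29 in KO (SD, n = 3). The share of ATP5MC3 was 36.0% ± 0.458, 33.6% ± 0.850 and 37.9% ± 0.600, so that the groups did not overlap for this isoform.

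The calls with PT2385 changed when single libraries were left out. Without control replicate 1, control replicate 2 or PT2385 replicate 2 no member was called higher, and without PT2385 replicate 3 there was 1. SDHB was called in 0 of the 6 fits that left out a library, ATP5F1A in 2 and ATP5MC1 in 3. Libraries with the same replicate number deviated together in PT2385 and control, and with the replicate number as a block 9 members were higher and 1 lower, beside 6.83% and 8.45% of all genes. In addition to the first 3 these were ATP5F1B, ATP5F1C, UQCRC2, UQCRH, CYC1 and NDUFB9, with log2 fold changes from 0.16 to 0.26, and SDHA, the flavoprotein partner of SDHB, with -0.16 (adjusted p = 0.0325).

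**Figure D1:**
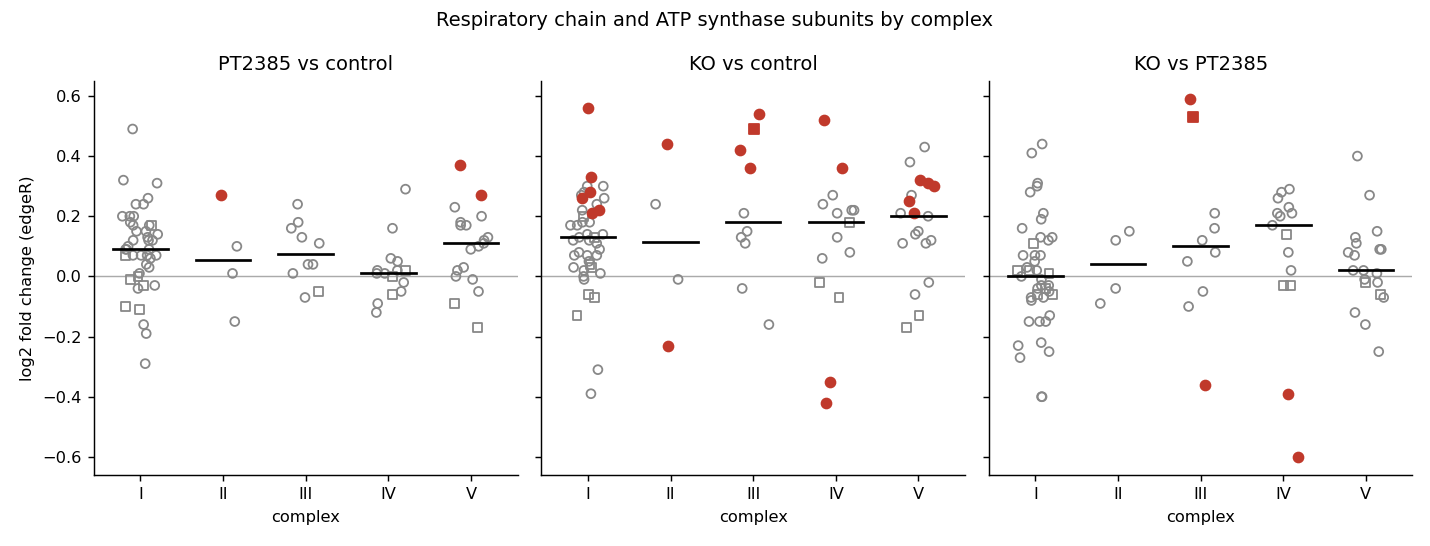
Log2 fold change of each tested member (edgeR, y axis) by complex (x axis) in the 3 comparisons. Circles are nuclear and squares mitochondrially encoded members, filled red where the adjusted p was under 0.05, and the black line is the median of the complex. With PT2385 3 members were called, in KO against control 21 and in KO against PT2385 5.

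KO cells were then compared with the control, a contrast in which COL1A1, PDGFRB and 4 of the 7 detected renal markers also differed. More subunits were called than with PT2385, again none by 1.5-fold, a size reached by 17.2% of all tested genes. Among tested genes with a mean of at least 10 CPM it was reached by 10.0%. Of 91 members tested, 18 were higher and 3 lower. Over all 15192 tested genes 30.1% were called, 14.7% higher and 15.4% lower, so that the members were called at 19.8% in the first direction and 3.30% in the second. By complex, 6 of 43 members of complex I were higher and 0 lower, 1 of 4 higher and 1 lower in complex II, 4 of 10 higher and 0 lower in complex III, 2 of 15 higher and 2 lower in complex IV, and 5 of 19 higher and 0 lower in ATP synthase. The median log2 fold change was 0.14, and 72 of 91 members lay above 0 against 50.5% of all tested genes. Of other mitochondrial lists, 51 of 78 ribosomal genes, 9 of 13 citrate cycle genes and 7 of 17 biogenesis genes lay above 0. In 31 members every KO library was above every control library and in 5 below, beside 21.0% and 23.0% of all tested genes. Leaving out 1 library gave 10 to 20 higher and 2 to 4 lower, with 10 higher without control replicate 1 or KO replicate 2 and 11 without control replicate 2. Of the 21 calls, 10 were kept in all 6 such fits, 17 were made by DESeq2 and 21 with the replicate number as a block. DESeq2 called 14 higher and 3 lower, beside 1924 and 2048 of all tested genes. At an unadjusted p under 0.05 there were 38 members, beside 6133 of the 15192 tested genes.

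In complex I, the called members were NDUFA1 (log2 fold change 0.56, SE 0.143, adjusted p = 0.0124), NDUFS7 (0.33), NDUFB7 (0.28), NDUFB2 (0.26), NDUFS1 (0.22) and NDUFV1 (0.21). NDUFA1 is a small membrane-arm subunit needed for assembly, NDUFV1 binds NADH and FMN, and NDUFS1 and NDUFS7 carry iron-sulphur clusters of the electron path. NDUFA1 (chromosome X, 119871832 to 119876662) had 6.13, 6.09 and 6.41 CPM in the controls, 6.83, 5.65 and 7.53 with PT2385 and 8.10, 9.89 and 9.25 in KO. The KO libraries lay above all 6 others. Its call was lost without 1 of the libraries (adjusted p up to 0.0509). NDUFV2, the partner of NDUFV1, had the lowest value of the complex at -0.39 and did not pass (adjusted p = 0.0601). It has a pseudogene with 10.9% as many counts. NDUFB2 overlaps ADCK2 on the same strand, so its counts may hold reads of that gene. On the opposite strand it overlaps BRAF, which had 11293 counts in all against 5092 for NDUFB2, and the lncRNA NDUFB2-AS1. The strand setting of the counting is unknown.

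Complex II showed opposite changes in its catalytic pair. SDHB (ENSG00000117118, chromosome 1, 17018664 to 17054032) had 35.2, 35.1 and 34.3 CPM in the controls, 41.3, 41.0 and 44.6 with PT2385, and 46.1, 46.4 and 48.7 in KO. The 3 groups did not overlap, and the log2 fold change was 0.44 in KO (SE 0.0711, adjusted p = 7.55e-04) and 0.27 with PT2385 (SE 0.0740, adjusted p = 0.0433). Between KO and PT2385 it was 0.15 and did not pass (adjusted p = 0.213). The SDHB call with PT2385 was lost in each of the 6 fits without a library, and DESeq2 did not make it. SDHA (ENSG00000073578, chromosome 5, 218303 to 257082) had 229, 230.5 and 251 CPM in the controls, 201, 206 and 234 with PT2385 and 198, 199.8 and 203 in KO. The KO libraries were below every control, with a log2 fold change of -0.23 (SE 0.0587, adjusted p = 0.0126), and the call was kept in 4 of the 6 fits without a library. Pseudogenes of SDHA held 9857 counts beside 25538 of SDHA itself, so how reads were split between them is uncertain. SDHAP1, the largest of them, had a log2 fold change of -0.17 in KO (adjusted p = 0.103).

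In complex III the 4 called members were UQCR11, MT-CYB, UQCRH and UQCR10, all higher in KO. UQCR11 (ENSG00000127540, chromosome 19, 1597169 to 1605473), a small accessory subunit, had 15.9, 16 and 17.6 CPM in the controls, 14.7, 16.2 and 16.2 with PT2385, and 22.6, 21.4 and 27.1 in KO. Control and PT2385 libraries overlapped, while KO was above both. The log2 fold change was 0.54 against control (SE 0.115, adjusted p = 0.00468) and 0.59 against PT2385 (SE 0.119, adjusted p = 0.0053). UQCRH, the hinge subunit that meets cytochrome c1, had 36.4, 40.8 and 40.5 CPM in the controls, 45.5, 45.9 and 48.1 with PT2385, and 52.2, 55.1 and 49.3 in KO. The 3 groups did not overlap, and KO was highest, with a log2 fold change of 0.42 in KO (adjusted p = 0.00182) and 0.24 with PT2385 (adjusted p = 0.0824).

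MT-CYB, the cytochrome b gene of the mitochondrial genome (ENSG00000198727, positions 14747 to 15887), was the 1 mitochondrially encoded member of the 13 with an adjusted p under 0.05. It had 424, 453 and 429.6 CPM in the controls, 379, 426 and 458 with PT2385, and 553, 636 and 636 in KO. All KO libraries were above the 6 others. The log2 fold change was 0.49 against control (SE 0.0675, adjusted p = 2.56e-04) and 0.53 against PT2385 (SE 0.0829, adjusted p = 0.00125), and the call was kept in all 6 fits without a library in both comparisons. The 12 other mitochondrial members had log2 fold changes in KO from -0.17 (MT-ATP8) to 0.20 (MT-ND1), and the mitochondrial rRNAs MT-RNR1 and MT-RNR2 had 0.16 and 0.18 (adjusted p = 0.067 and 0.189). MT-CO1 had 0.18 (adjusted p = 0.0588) with no overlap of the groups. Relative to the other mitochondrial members without MT-CO1, MT-CYB counts were 12.7% ± 0.0577 in the controls, 12.6% ± 1.92 with PT2385 and 18.3% ± 1.28 in KO (SD, n = 3). The total mitochondrial share of counts was 0.977% ± 0.0382, 0.990% ± 0.0623 and 1.06% ± 0.0781 in the same order, and these ranges met or overlapped.

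**Figure D2:**
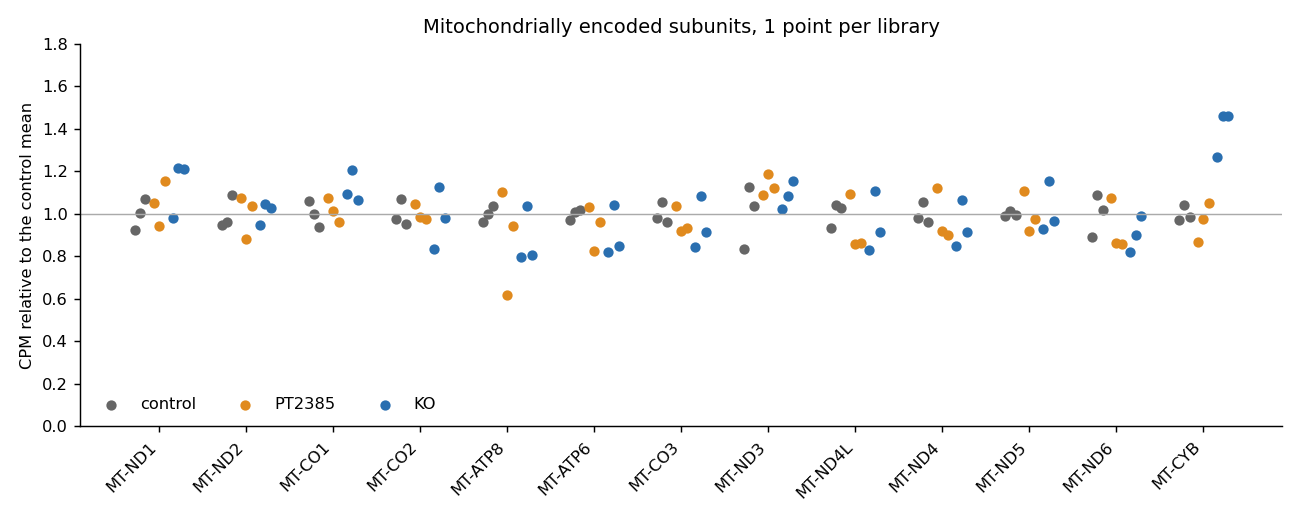
CPM of the 13 mitochondrially encoded members in each library relative to the control mean (y axis), in control (grey), PT2385 (orange) and KO (blue), ordered by position in the mitochondrial genome. MT-CYB is the member whose KO libraries (553 to 636 CPM) all lie well above those of control (424 to 453 CPM).

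In complex IV the directions were mixed. NDUFA4 (chromosome 7, 10931943 to 10940153) had 30.5, 33.7 and 28.5 CPM in the controls, 34.7, 35.1 and 43.9 with PT2385, and 42.0, 44.2 and 45.2 in KO. Control values were the lowest of the 3 groups, and the log2 fold change in KO was 0.52 (SE 0.0847, adjusted p = 8.76e-04). With PT2385 it was 0.29 (adjusted p = 0.129). COX7A2, the widely expressed form of subunit VIIa, had 0.36 in KO (adjusted p = 0.0382). Its call was not kept in all fits without a library, and DESeq2 called only 1 member of the complex higher. COX5A and COX4I1, nuclear subunits that bind next to the MT-CO1 core early in assembly, were lower.

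COX5A (ENSG00000178741, chromosome 15, 74919791 to 74938083) had 39.7, 40.7 and 36.1 CPM in the controls, 43.9, 43.2 and 43.8 with PT2385, and 29.2, 28.5 and 28.9 in KO. The groups did not overlap, with PT2385 highest and KO lowest. The log2 fold change was -0.42 in KO against control (SE 0.0806, adjusted p = 0.00249) and -0.60 against PT2385 (SE 0.0772, adjusted p = 3.64e-04). COX4I1 (ENSG00000131143, chromosome 16, 85798633 to 85807068) had 62.1, 63.6 and 59.9 CPM in the controls, 57.4, 62.5 and 67.8 with PT2385, and 44.2, 50.7 and 49.1 in KO. KO was below both, with log2 fold changes of -0.35 (SE 0.0734, adjusted p = 0.0038) and -0.39 (SE 0.0860, adjusted p = 0.0095). COX4I1 overlaps EMC8 on the opposite strand, and EMC8 had -0.38 in KO (adjusted p = 0.00538).

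The position of the lower members was therefore examined. In KO, tested genes on chromosome 15 other than the members had a median log2 fold change of -0.57 against control over 497 genes, with 89.5% below 0 and 65.6% called lower. On chromosome 16 the median was -0.35 over 716 genes, with 84.2% below 0 and 49.4% called lower. The medians of the 21 other chromosomes ran from -0.05 (chromosome 17) to 0.10 (chromosome 19). With PT2385 the medians were -0.02 and 0.02 on chromosomes 15 and 16. COX5A differed from its chromosome median by 0.15 and COX4I1 by -0.01, and within 5 Mb on either side the medians were -0.64 over 76 genes around COX5A and -0.41 over 95 genes around COX4I1. The other tested members on chromosome 16 were UQCRC2, a core subunit of complex III (-0.16, 0.18 above the chromosome median), and NDUFB10 of complex I (-0.01, 0.34 above it). With members on these chromosomes left out, SDHA was the 1 lower member in KO, at -0.23. The median of its chromosome 5 was 0.03. Within 5 Mb on either side of SDHA the median was -0.17 over 22 genes, of which 14 lay below 0. Around the 17 higher nuclear members in KO, medians within 5 Mb ran from -0.05 (ATP5F1C, 36 genes) to 0.21 (COX7A2, 34 genes). DNA copy number was not measured here, and the part of chromosomal position in these values was not tested.

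**Figure D3:**
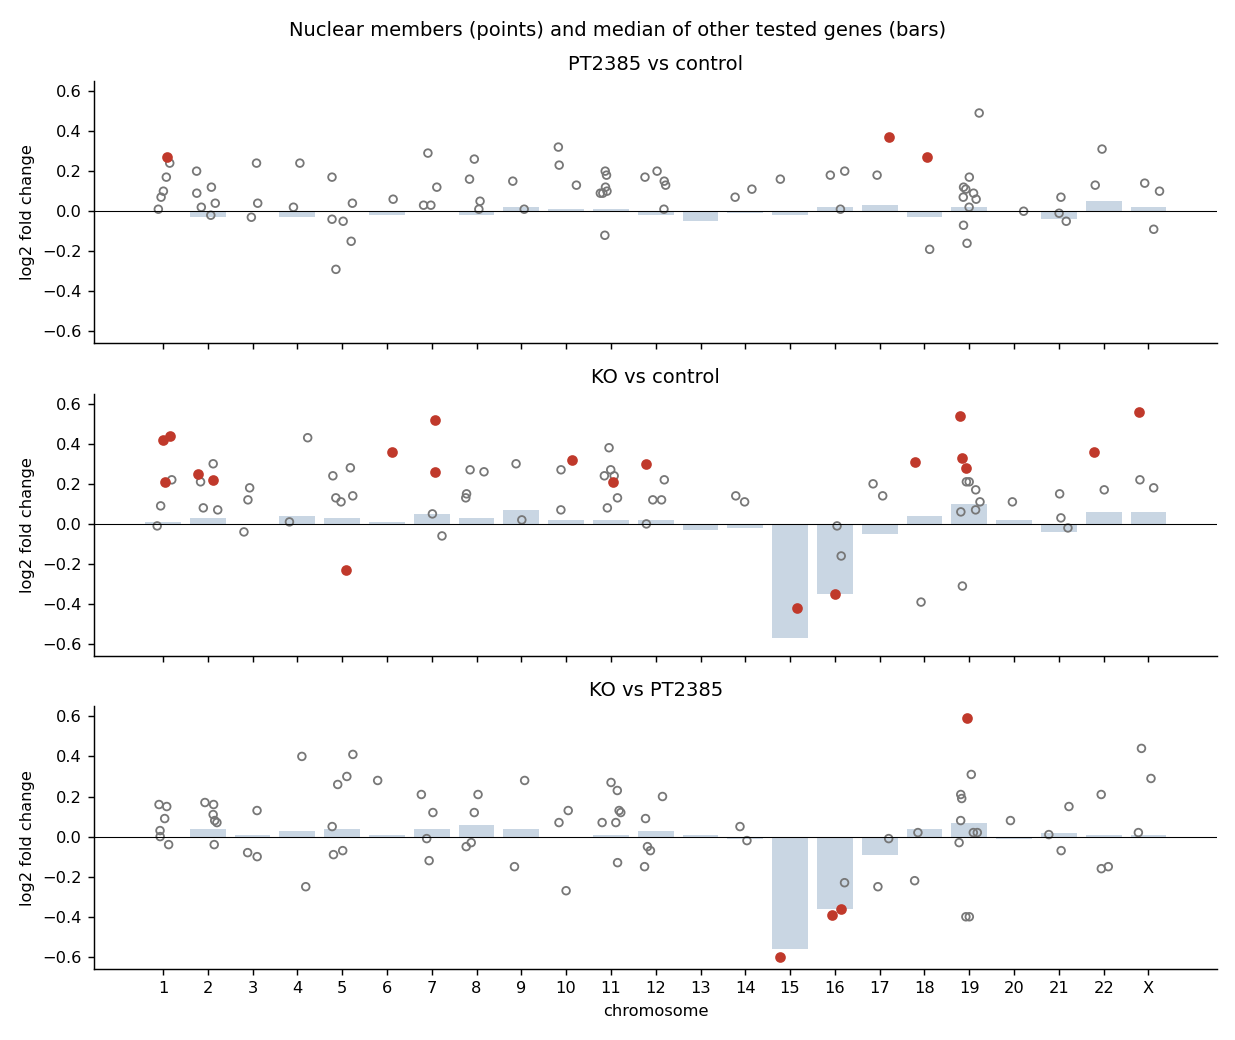
Log2 fold change of the nuclear members (points, red where called) by chromosome, with the median of all other tested genes on that chromosome as bars, in the 3 comparisons. In KO the bars of chromosomes 15 (-0.57) and 16 (-0.35) stand below those of the other chromosomes, and COX5A (-0.42) and COX4I1 (-0.35) are the called members there.

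Of the 5 subunits of the catalytic head of ATP synthase, ATP5F1A, ATP5F1B and ATP5F1C were higher in KO, while ATP5F1D (0.21, adjusted p = 0.0744) and ATP5F1E (0.11, adjusted p = 0.357) did not pass. ATP5F1A had 217, 221 and 244 CPM in the controls, 254, 274 and 298 with PT2385, and 262, 287 and 288 in KO. Its log2 fold change was 0.31 in KO (SE 0.0665, adjusted p = 0.00491) and 0.27 with PT2385 (SE 0.0709, adjusted p = 0.0378), and both groups lay above all controls. ATP5F1B had 396, 405 and 444 CPM, 446, 469 and 517 CPM, and 484, 509 and 531 CPM in the same order, with a log2 fold change of 0.30 in KO (SE 0.0637, adjusted p = 0.00417) and 0.20 with PT2385 (adjusted p = 0.107). ATP5F1C, the rotating γ subunit, had 0.32 (SE 0.0649, adjusted p = 0.00358) and 0.23 (adjusted p = 0.0698). KO and PT2385 overlapped in all 3 genes, and the differences between them were 0.02, 0.09 and 0.07 (adjusted p = 0.908, 0.446 and 0.585). ATP5MC3 (0.25) and the stalk subunit ATP5PB (0.21), which overlaps WDR77, were also higher in KO. ATP5ME, with the highest log2 fold change of the complex at 0.43, did not pass (SE 0.172, adjusted p = 0.0833) at 5.45 to 9.55 CPM.

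**Figure D4:**
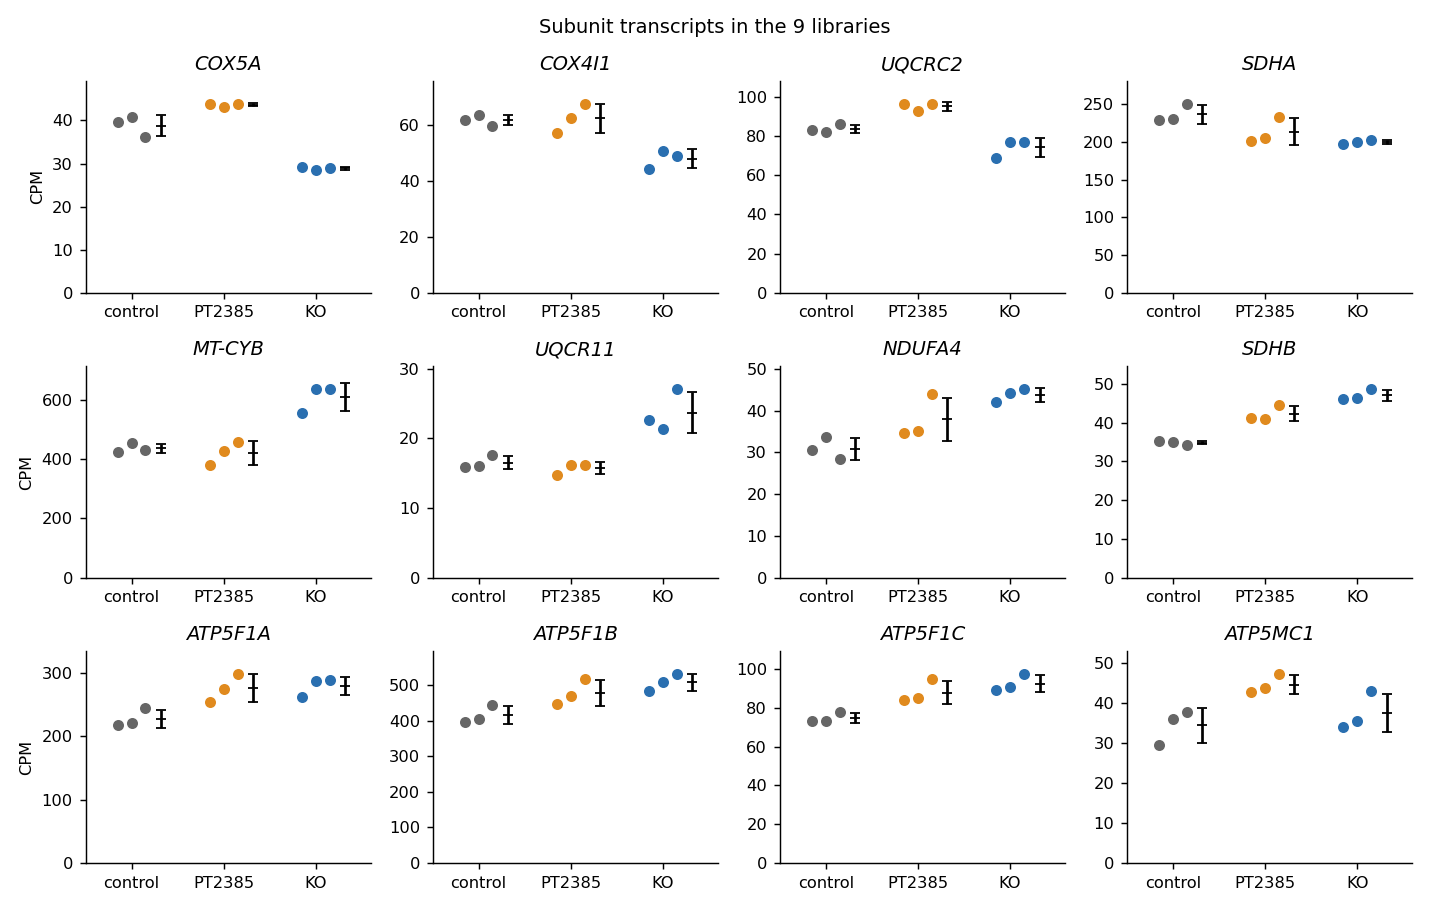
CPM (y axis, from 0) of 12 members in the 9 libraries, 3 points per group, with the group mean and SD in black beside them. COX5A, COX4I1 and UQCRC2 are lowest in KO, MT-CYB and UQCR11 are highest in KO with PT2385 at the control level, and ATP5F1A, ATP5F1B and ATP5F1C are above control in both PT2385 and KO.

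Summed over the nuclear members, complexes I and V were above control in both groups. ATP synthase subunits summed to 1214 CPM ± 47.5 in the controls, 1383 ± 74.0 with PT2385 and 1433 ± 60.2 in KO (SD, n = 3), with every library of both groups above every control. ATP5F1A and ATP5F1B together made up 642 ± 40.3, 752 ± 58.0 and 787 ± 36.9 CPM of these sums. The other nuclear subunits of the complex summed to 571 ± 17.6, 631 ± 16.2 and 647 ± 29.7 CPM, also without overlap with the controls. Complex I subunits summed to 899.7 ± 23.4, 972 ± 41.5 and 1001 ± 45.8 CPM, also without overlap with the controls. For complexes II, III and IV at least 1 of the groups overlapped the controls. Complex IV in KO lay just above every control, at 391 to 409 CPM against 369.8 to 389 CPM. Complex II in KO lay below every control, at 343 to 359 CPM against 362 to 387 CPM. Complex II stood at 373 ± 12.9, 359.7 ± 21.1 and 351 ± 8 CPM, a sum in which SDHA is the largest term.

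**Figure D5:**
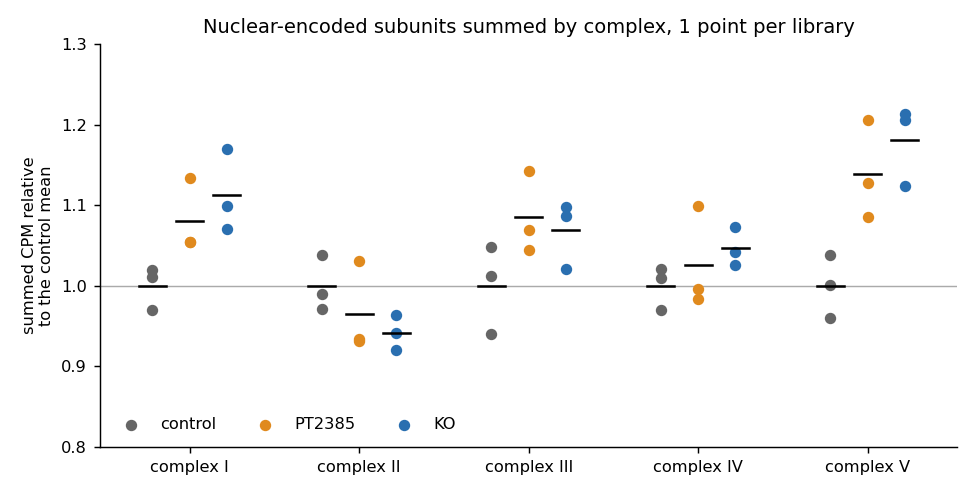
Summed CPM of the nuclear members of each complex relative to the control mean (y axis from 0.8), 1 point per library and a black line for the group mean. Complexes I and V lie above control in PT2385 and KO. Complex IV lies just above control in KO (399 against 381 CPM on average), and complex II in KO lies below it (351 against 373 CPM on average).

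KO and PT2385 share the control, so the direct contrast was made in a model of its own. Of 92 members tested, 2 were higher in KO than with PT2385 (UQCR11 and MT-CYB, above) and 3 lower (COX5A, COX4I1 and UQCRC2). Over all 15402 tested genes 18.8% were called, 8.47% higher and 10.3% lower. Log2 fold changes had a median of 0.02, and 54 of the 92 lay above 0. A 1.5-fold difference was found for COX5A and UQCR11, and for 14.0% of all tested genes. Among tested genes with a mean of at least 10 CPM the share was 7.35%. The libraries of the groups did not overlap in 16 members higher and 8 lower in KO, beside 16.6% and 18.5% of all tested genes. UQCRC2 (ENSG00000140740, chromosome 16, 21953288 to 21983660) had 83.2, 82.3 and 86.3 CPM in the controls, 96.7, 92.8 and 96.5 with PT2385, and 68.8, 77.1 and 77.0 in KO. The groups did not overlap, and KO against PT2385 had a log2 fold change of -0.36 (SE 0.0726, adjusted p = 0.00533). All 3 lower members are on chromosomes 15 and 16, whose medians in this contrast were -0.56 and -0.36, and without these chromosomes 0 members were lower. UQCR11 and MT-CYB are on neither.

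Promoter sequences are shown for members that were lower (COX5A, COX4I1) and higher (UQCR11, SDHB, NDUFA1) in KO, to set their motifs side by side. The RefSeq promoter table (GRCh38.p14, 250 bases before to 50 after each start) held 82 promoters of 69 of the 89 nuclear members. Motifs were searched on both strands: ACGTG and GCGTG, cores of the hypoxia response element, GCATGCGC for NRF1, AANATGGC for YY1, and CCGGAAG for the ETS family. Capitals mark every match, on either strand, and the sequences run 5′ to 3′ on the gene's strand.
COX5A promoter (chr15:74938024-74938323, minus strand): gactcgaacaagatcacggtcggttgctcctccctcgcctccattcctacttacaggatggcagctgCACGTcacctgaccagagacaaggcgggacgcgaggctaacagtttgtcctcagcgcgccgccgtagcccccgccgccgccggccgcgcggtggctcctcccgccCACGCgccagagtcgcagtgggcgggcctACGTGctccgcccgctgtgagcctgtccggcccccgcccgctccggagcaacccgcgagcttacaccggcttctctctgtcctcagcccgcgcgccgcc
COX4I1 promoter (chr16:85799445-85799744, plus strand): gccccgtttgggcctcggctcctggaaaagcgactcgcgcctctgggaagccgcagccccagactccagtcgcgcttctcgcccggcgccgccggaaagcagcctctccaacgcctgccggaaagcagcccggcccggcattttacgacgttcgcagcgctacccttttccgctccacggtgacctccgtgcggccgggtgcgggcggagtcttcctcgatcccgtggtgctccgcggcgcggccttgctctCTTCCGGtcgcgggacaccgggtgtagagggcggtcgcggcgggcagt
UQCR11 promoter (chr19:1605413-1605712, minus strand): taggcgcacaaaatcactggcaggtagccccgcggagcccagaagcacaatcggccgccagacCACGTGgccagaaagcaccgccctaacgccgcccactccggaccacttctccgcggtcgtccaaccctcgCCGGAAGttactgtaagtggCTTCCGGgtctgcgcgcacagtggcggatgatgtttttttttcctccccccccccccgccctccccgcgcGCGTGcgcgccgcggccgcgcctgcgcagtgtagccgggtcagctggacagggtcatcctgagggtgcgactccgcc
SDHB promoter (chr1:17053983-17054282, minus strand): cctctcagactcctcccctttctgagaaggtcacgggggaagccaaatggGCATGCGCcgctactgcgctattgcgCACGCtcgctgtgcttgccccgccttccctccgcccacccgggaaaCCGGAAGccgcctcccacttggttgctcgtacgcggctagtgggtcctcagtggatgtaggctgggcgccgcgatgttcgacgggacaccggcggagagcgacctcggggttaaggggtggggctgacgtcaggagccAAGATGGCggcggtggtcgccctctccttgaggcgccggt
NDUFA1 promoter (chrX:119871582-119871881, plus strand): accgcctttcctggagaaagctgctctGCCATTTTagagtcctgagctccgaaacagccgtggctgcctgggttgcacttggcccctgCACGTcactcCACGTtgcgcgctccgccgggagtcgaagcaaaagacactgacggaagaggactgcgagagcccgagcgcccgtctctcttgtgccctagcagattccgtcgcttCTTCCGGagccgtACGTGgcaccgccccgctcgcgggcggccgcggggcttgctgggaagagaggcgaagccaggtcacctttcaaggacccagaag
The COX5A promoter holds ACGTG and GCGTG matches and the COX4I1 promoter only an ETS match. UQCR11 holds matches to the hypoxia cores and ETS, SDHB to GCGTG, NRF1, YY1 and ETS, and NDUFA1 to ACGTG, YY1 and ETS. No motif contains another, but the palindrome CACGTG in UQCR11 matches ACGTG on both strands. Of the 82 member promoters 24.4% held ACGTG, against 21.4% of all 35116 promoters of the table. GCGTG was in 41 of the 82 against 36.5% of all, GCATGCGC in 18.3% against 3.05%, AANATGGC in 34.1% against 6.58% and CCGGAAG in 26.8% against 10.3%. These matches describe letters in a window and no binding was measured.

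Genes that build or regulate the chain were taken from 10 lists with 176 tested genes. With PT2385 2 (1.14%) were higher and 4 (2.27%) lower, beside 3.08% and 4.62% of all tested genes. PPARGC1B, a coactivator of mitochondrial biogenesis, had a log2 fold change of 0.58 (SE 0.153, adjusted p = 0.0386), and its call was kept in 1 of the 6 fits without a library. PPARGC1A of the same list had 8, 7 and 15 counts in the controls, 26, 23 and 23 with PT2385 and 8, 21 and 13 in KO. It was not called with PT2385 or in KO. Among 11 HIF-linked regulators 3 were lower, MIR210HG, the host of the hypoxia miRNA miR-210 (-1.63, SE 0.232, adjusted p = 8.34e-04), the mitophagy receptor BNIP3L (-0.97, SE 0.0906, adjusted p = 2.53e-05) and PDK1, which restrains pyruvate entry into the citrate cycle (-0.35, adjusted p = 0.0121). Of the mitochondrial ribosomal genes MRPS6 was lower (-0.54) and MRPS26 higher (0.38), the latter in 0 of the 6 fits without a library. These fits left 0 list genes higher without control replicate 1 or 2 or PT2385 replicate 2 or 3, and 1 in the others, with 3 to 4 lower.

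In KO 17 of the 176 (9.66%) were higher and 15 (8.52%) lower, below the 14.7% and 15.4% of all tested genes. Leaving out 1 library gave 9 to 16 higher and 8 to 19 lower, with 9 to 11 higher without any of the controls or KO replicate 2, and 8 or 9 lower without control replicate 2 or 3 or KO replicate 1. PPARGC1B was higher (0.71, SE 0.130, adjusted p = 0.00181), as was ESRRA, a nuclear receptor it can activate (0.35, adjusted p = 0.0181). MIR210HG (-1.98), PDK1 (-0.26) and MRPS6 (-0.62) were lower. BNIP3L had -0.16 (adjusted p = 0.197) and differed between KO and PT2385 by 0.79 (SE 0.0983, adjusted p = 2.96e-04). The biogenesis list had 2 higher and 4 lower of 17, the lower ones being TFAM, PPRC1, GABPB1 and POLG. GABPB1 (-0.68) and POLG (-0.62), the mitochondrial DNA polymerase, are on chromosome 15, as are IDH3A (-0.49), MRPS11 (-0.62) and MRPL46 (-0.89). In all, 7 of the 15 lower list genes are on chromosomes 15 and 16, among them NDUFAB1, the acyl carrier subunit of complex I outside the symbol rule (-0.36). The citrate cycle had 4 higher and 3 lower of 13, with OGDH (0.43), MDH2 (0.41) and DLD (0.38) higher and FH (-0.40), on chromosome 1, lower. COX20, another lower list gene, is also on chromosome 1, and the genes around the list genes were not examined. The median log2 fold change in KO was 0.18 for the citrate cycle, -0.12 for the biogenesis list and 0.08 for the HIF-linked regulators, beside 0.00 for all tested genes.

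Assembly factors were counted in the same way. In KO, where 30.1% of all tested genes were called, 2 of 18 complex I factors were higher (NDUFAF5 and TMEM126B) and 0 lower, 1 of 10 of complexes II and III was higher (UQCC1), and of 20 for complex IV 1 was higher (COA3) and 1 lower (COX20). DESeq2 called UQCC1 higher and COX20 lower, and 0 of the complex I factors. The calls of NDUFAF5, TMEM126B and COA3 were each kept in 1 of the 6 fits without a library, that of COX20 in 4 and that of UQCC1 in 6. Of the 5 ATP synthase factors 0 were called in the 3 comparisons by edgeR or DESeq2, and 0 had an unadjusted p under 0.05. The mitochondrial ribosome had 7 higher and 4 lower of 78, with a median of 0.06. With PT2385 0 assembly factors were called by edgeR or DESeq2. At an unadjusted p under 0.05 there were 2 for complexes II and III and 2 for complex IV, and with the replicate block 1 of each of these lists was higher.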

How the data were processed

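RNA of 9 libraries of 786-0 cells was sequenced (3 per group). According to the study's methods, the authors trimmed reads with cutadapt, aligned them to GRCh38 with STAR and counted them with featureCounts. The deposited values are raw counts per gene, without normalization. Annotation release, strandedness and the treatment of multiply mapped reads are not given in the sources used here. GENCODE v44 paired 58207 of the 58735 identifiers with a symbol, and 0 columns were left without a sample.

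A separate edgeR model (4.0.16, R 4.3.3) was fitted for every 2 groups: TMM, filterByExpr with a minimum of 10 counts, quasi-likelihood F test, Benjamini-Hochberg over all tested genes, adjusted p under 0.05. The steps were tested on simulated counts. Exon unions gave lengths. The alternatives were DESeq2 1.42.0, other scalings and filters, a replicate block, all libraries in 1 model, stricter thresholds and leaving out each library. Leaving out members on chromosomes 15 and 16 was added after seeing the data. Same-numbered libraries of control and PT2385 deviated together (r = 0.438, 0.1211 and 0.4128 over 11000 genes), a pairing taken from the data and not from the labels.

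The members and gene lists were chosen with earlier results of these data known. Named members were NDUFA4, NDUFA4L2, COX4I1, COX4I2, the mitochondrially encoded members, those of the isoform ratios, those at the floor, the highest and lowest log2 fold change of each complex in each comparison, and calls of at least 1.5-fold. The same 1.5-fold rule, with at most 4 per list, held for list genes. The other called members, the list genes under 1.5-fold and the members on chromosome 16 were named after their values were seen. Count ratios carry 95% intervals for counting error only.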

Additional observations from a re-analysis of the deposited data

How the results depend on the processing

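Of the 50 tested members and 35 other genes named no called value changed sign under any alternative. For PT2385 the 3 higher members became 5 with no filter on low counts, 9 with the replicate block, 0 at an adjusted p under 0.01 and 0 when 1.5-fold was the tested size, and 0 to 4 without a library. The 0 lower members became 1 with the block and 0 to 1 without a library. In KO against control the 18 higher became 8 at an adjusted p under 0.01 and 0 against 1.5-fold, with 10 to 20 without a library. The 3 lower became 0 against 1.5-fold and 1 with members on chromosomes 15 and 16 left out, with 2 to 4 without a library. In KO against PT2385 the 2 higher became 1 with mitochondrially encoded genes left out, 4 in a model of all 9 libraries and 0 against 1.5-fold, and the 3 lower became 0 against 1.5-fold and 0 without chromosomes 15 and 16. Both ranged from 2 to 4 without a library. The cause was not tested, apart from the genes or samples an alternative removes.

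Same-numbered libraries of KO and control correlated in their deviations at 0.3021, 0.0453 and 0.4485. Those of KO and PT2385 correlated at 0.3332, 0.0735 and 0.3934. As between control and PT2385, the values were higher for replicates 1 and 3 than for replicate 2. KO replicate 2 correlated more with replicate 1 of control (0.2658) and of PT2385 (0.1649) than with replicate 2 of these groups. The other pairs of KO with a different number ran from -0.4312 to 0.0904. The pairing was thus not seen for KO replicate 2. Here too the labels give only the number, and the pairing is taken from the data. With the replicate block 26 members were higher and 4 lower in KO against control, 3 of them mitochondrially encoded. Of all 15192 tested genes 2730 were higher and 2771 lower with the block, against 2230 and 2336 without it. In KO against PT2385 the block gave 2 members higher and 4 lower, beside 1745 and 2038 of all 15402 tested genes.

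Over all tested genes, the calls with PT2385 went from 1162 to 2305 with the block, 516 at an adjusted p under 0.01, 172 against 1.5-fold and 574 to 1451 without a library. In KO against control 4566 became 2788 and 882 under these thresholds, and in KO against PT2385 2897 became 1657 and 528, with 1836 to 3190 without a library. Of the genes of the 10 lists, the 17 higher in KO became 11 with DESeq2, 27 with the block, 7 at an adjusted p under 0.01 and 0 against 1.5-fold, and the 15 lower became 8 and 1 under these thresholds. With PT2385 the 2 higher became 4 under upper-quartile or library-size scaling or with no filter, 10 with the block, 1 with DESeq2 and 0 under both stricter thresholds, with 0 to 1 without a library.

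With the longest annotated transcript as length, the median RPKM of detected nuclear members moved from 8.99 to 13.7 in control, 10.0 to 14.7 with PT2385 and 10.6 to 15.7 in KO. Over protein-coding counts alone the mitochondrial share in control moved from 0.977% to 1.02%.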
